A study of Mus musculus with 8 samples.

Results

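The 10 genes Sec11c, Sec11a, Spcs1, Spcs2, Spcs3, Srp9, Srp14, Srp54a, Srp72 and Srpr encode subunits of the signal peptidase complex, the signal recognition particle and the particle's receptor, and their transcripts were followed in pancreatic islets of weight-cycled and obese mice. They were chosen by gene symbol as partners of Sec11c, and Sec11c itself was chosen for its higher level in weight-cycled islets, so its difference is described and not tested. They are 10 of the 35596 genes in the deposited table. All 10 passed the filter on low values, a mean of at least 1 TPM over the 8 libraries, as did 8127 genes in all.

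All libraries came from islets, the hormone-secreting clusters of the pancreas, of male mice of the inbred strain C57BL/6J, with 4 libraries in each group. Weight-cycled mice received a 60% fat diet for 9 weeks, a 10% fat diet for 9 weeks and the 60% diet for 9 further weeks. Obese mice received the 10% diet for 9 weeks and the 60% diet for 18 weeks, so both groups spent 18 weeks on the 60% diet. The last unbroken stretch on that diet was 9 weeks in weight-cycled and 18 weeks in obese mice, and this cannot be told apart from the loss and regain of weight. The ages of the mice are not in the labels. Nor do the labels tie libraries to animals, and if libraries shared animals the p-values would reflect technical spread only. Islets were freed with collagenase P and picked by hand, and polyadenylated RNA was sequenced. Levels are TPM, an abundance per transcript length relative to the library's total that keeps no record of sequencing depth, so no counting interval can be given. In bulk islet RNA, fewer cells of a type and less RNA per cell cannot be told apart.

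Proteins bound for secretion start with a signal peptide. The signal recognition particle, an RNA with bound proteins, catches that peptide as it leaves the ribosome, slows translation and docks the ribosome on its receptor in the membrane of the endoplasmic reticulum, where the chain enters the translocon. The signal peptidase complex then cuts the signal peptide off inside the endoplasmic reticulum. In beta cells the chief client of this route is preproinsulin, whose signal peptide is removed to give proinsulin.

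The libraries matched their tissue label. Ins1 and Ins2, the 2 mouse insulin genes, made up 77.6% ± 1.51 of all TPM in weight-cycled and 77.4% ± 0.671 in obese islets (SD, n = 4 each). The 9 beta-cell markers summed to 785353 to 813089 TPM in weight-cycled and 790066 to 803844 TPM in obese libraries, and 5 of the 9 were lower in weight-cycled islets at the threshold used below, by which 23.9% of all tested genes were lower. After the scaling described below, 1 of the 9 was lower, as were 0.566% of all tested genes. Weight-cycled replicate 1 stood apart from its group: on the first principal component, with 66.8% of the variance, it scored -7.98, the other weight-cycled libraries 13.8 to 30.6 and the obese libraries -23.3 to -5.03. Its 14 acinar markers, genes of digestive enzymes and their regulators, summed to 8272 TPM, against 3573 to 4086 TPM in the other weight-cycled and 2789 to 5218 TPM in the obese libraries. Counts of calls are therefore also given without it. On TPM as deposited, 5 of the 9 beta-cell markers were then lower and 1 higher, beside 54.6% and 3.32% of all tested genes.

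Across the members, Sec11c stood highest and showed the largest difference of the 10, while Srp9 and Spcs1 were moderately higher and Srp54a lower in weight-cycled islets. Tests used limma on log2(TPM + 1) over all 8127 genes, with Benjamini-Hochberg adjustment and a threshold of 0.05. Of the 9 members other than Sec11c, 2 rose (Spcs1 and Srp9), 1 fell (Srp54a) and 6 did not pass. Of all tested genes, 1.21% were higher and 23.9% lower in weight-cycled islets by that rule. The count of lower members, 1 of 9, lies below that background share and the count of higher members above it, with numbers too small to read further. The median log2 fold change of the 9 was 0.11, and that of all tested genes was -0.26.

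Because the median of all genes lay below 0, each fold change was also set against it, and 7 of the 9 members lay above it. After median-of-ratios scaling, which centres the typical gene near 0 (median -0.01), the median of the 9 was 0.44 and none of them passed. By that scaling 1.24% of tested genes were higher and 0.566% lower, and 6 of the 9 members had an unadjusted limma p under 0.05, the smallest adjusted p being 0.0616. In another run, the trend with transcript length of each library's deviations from the gene means was subtracted. This length removal also centred the typical gene near 0 (median -0.01), so its effects are not those of length alone. By it, Spcs1 alone of the 9 passed, and the median of the 9 was 0.27, with 1.78% of tested genes higher and 1.53% lower. The direction of 2 members turned between these scales, since Spcs3 and Srpr had log2 fold changes of -0.05 and -0.14 on TPM as deposited and of 0.27 and 0.19 after scaling.

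**Figure D1:**
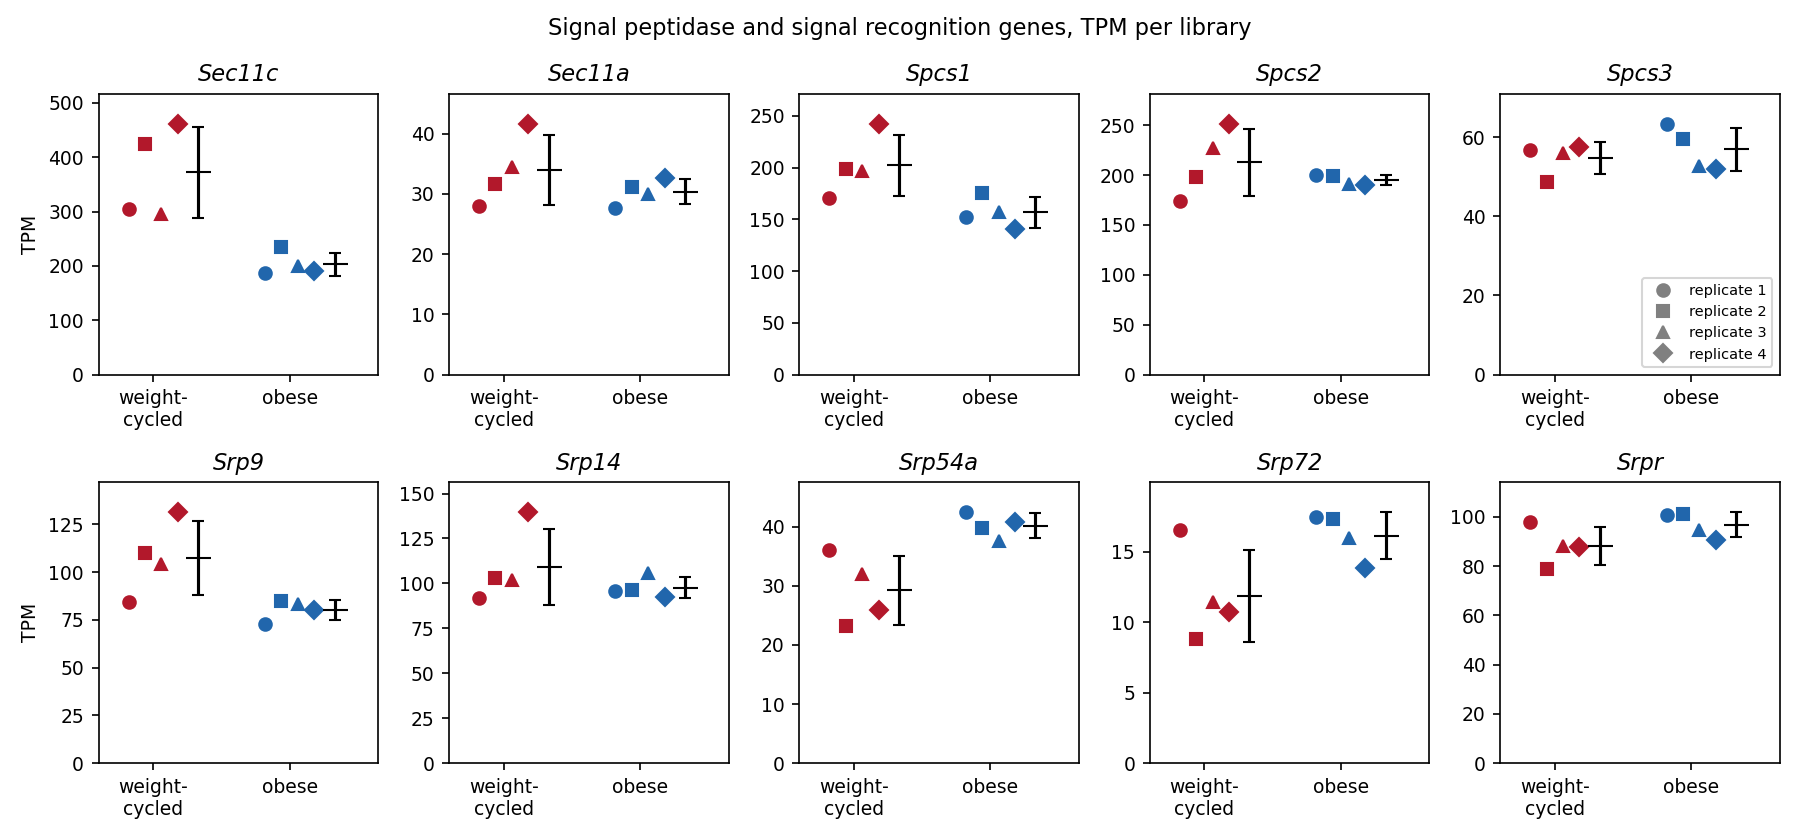
TPM (y axis, from 0) of the 10 genes in each weight-cycled (red) and obese (blue) library; point shapes give the replicate number and black marks the mean ± SD, n = 4 each. Sec11c sat at 296 to 462 TPM in weight-cycled and 187 to 235 TPM in obese libraries, and Srp54a at 23.1 to 36.0 TPM in weight-cycled and 37.6 to 42.4 TPM in obese libraries.

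Sec11c (ENSMUSG00000024516.13, chromosome 18, 65800515 to 65817684, build GRCm38, plus strand) encodes 1 of the 2 alternative catalytic subunits of the signal peptidase, the serine-type proteases that make the cut. It stood at 306, 425, 296 and 462 TPM in weight-cycled replicates 1 to 4, against 187, 235, 199 and 190 TPM in obese replicates 1 to 4. Every weight-cycled library lay above every obese one, with replicates 2 and 4 highest. The means were 372 ± 83.7 TPM in weight-cycled and 203 ± 21.8 TPM in obese islets (SD, n = 4 each), a ratio of 1.84. The log2 fold change was 0.85 (SE 0.149), which is 1.11 above the median of all tested genes. It was 1.18 after scaling and 0.99 after removal of the length trend. Of all tested genes, 1.30% were higher and 21.1% lower in weight-cycled islets with no overlap between groups, and since Sec11c was picked for this contrast nothing is read from that share. Set against the insulin transcripts, Sec11c stood at 0.393, 0.542, 0.376 and 0.613 TPM per 1000 TPM of Ins1 plus Ins2 in weight-cycled libraries. In obese libraries it stood at 0.242, 0.305, 0.259 and 0.242, without overlap. The insulin share was nearly the same in both groups (77.6% and 77.4% of TPM). This ratio therefore repeats the level of Sec11c and is no separate observation.

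Sec11a (ENSMUSG00000025724.12, chromosome 7, 80904889 to 80947780, minus strand) encodes the other catalytic subunit, which takes the place of Sec11c in a separate form of the complex. It had 28.0, 31.7, 34.4 and 41.7 TPM in weight-cycled libraries, against 27.7, 31.2, 30.0 and 32.7 TPM in obese libraries. The groups overlapped, with only weight-cycled replicates 3 and 4 above the obese range. Its log2 fold change of 0.14 (SE 0.117) did not pass (limma adjusted p = 0.329). The transcripts of the 2 paralogues share 0 of the 4692 31-base words of Sec11a, so reads assigned by sequence can be told apart between them.

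Sec11c was therefore the more abundant catalytic subunit transcript in both groups, and by a wider margin in weight-cycled islets. It made up 91.6%, 93.1%, 89.6% and 91.7% of the sum of both in weight-cycled libraries, against 87.1%, 88.3%, 86.9% and 85.3% in obese libraries. The ratio of Sec11c to Sec11a averaged 11.0 ± 1.97 in weight-cycled and 6.68 ± 0.703 in obese islets (SD, n = 4 each). The ranges, 8.60 to 13.4 and 5.81 to 7.53, did not overlap, and this ratio is untested because Sec11c is its numerator. Both together amounted to 1.92 ± 0.353 times Spcs2 in weight-cycled and 1.19 ± 0.109 times Spcs2 in obese islets. That comparison is also untested, because Sec11c makes up most of the sum.

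Of the 3 non-catalytic subunits, Spcs1 passed the threshold and Spcs2 and Spcs3 did not, and the difference between them was not tested. Spcs1 (ENSMUSG00000021917.16, chromosome 14, 30999826 to 31001672, minus strand), a small membrane subunit whose yeast counterpart helps choose substrates, had 170, 199, 197 and 242 TPM in weight-cycled libraries, against 152, 176, 157 and 141 TPM in obese libraries. Weight-cycled replicate 1 lay inside the obese range and the other 3 above it. Spcs1 averaged 202 ± 29.9 TPM in weight-cycled and 157 ± 14.6 TPM in obese islets (SD, n = 4 each). This is 0.36 on the log2 scale (SE 0.115), with a limma adjusted p of 0.0448. The call was lost after scaling, with a log2 fold change of 0.69 and a limma adjusted p of 0.0616, and was held narrowly after length removal at 0.50 (limma adjusted p = 0.0499852). Exons of Glt8d1 on the opposite strand cover 16.3% of its exon bases, and whether the library kept strand is not given in the sources used here.

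Spcs2 (ENSMUSG00000035227.7, chromosome 7, 99837569 to 99863462, minus strand), an accessory membrane subunit, had 174, 198, 227 and 252 TPM in weight-cycled libraries, against 200.3, 199, 191 and 191 TPM in obese libraries. The weight-cycled values ran both below and above the narrow obese range. Spcs3 (ENSMUSG00000054408.9, chromosome 8, 54520433 to 54529998, minus strand), the subunit that faces the interior of the endoplasmic reticulum and is needed for catalysis, had 56.7, 48.6, 56.0 and 57.5 TPM in weight-cycled libraries, against 63.4, 59.5, 52.8 and 51.9 TPM in obese libraries. The ranges overlapped, with weight-cycled replicate 2 the lowest and obese replicate 1 the highest. Neither gene passed, with log2 fold changes of 0.11 (SE 0.112, limma adjusted p = 0.429) for Spcs2 and -0.05 (SE 0.0967, limma adjusted p = 0.656) for Spcs3.

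The ratio of Spcs1 to Spcs2 was 0.976, 1.004, 0.865 and 0.963 in weight-cycled libraries, against 0.761, 0.884, 0.822 and 0.738 in obese libraries. The groups met only at weight-cycled replicate 3, which lay below obese replicate 2. Of the 4 signal peptidase subunits other than Sec11c, 1 was called higher and none lower on TPM as deposited. These counts stand beside 1.21% and 23.9% of all tested genes and are too small to read further. Sec11c, Spcs2 and Spcs1 were the more abundant transcripts and Spcs3 and Sec11a the less abundant in both groups.

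**Figure D2:**
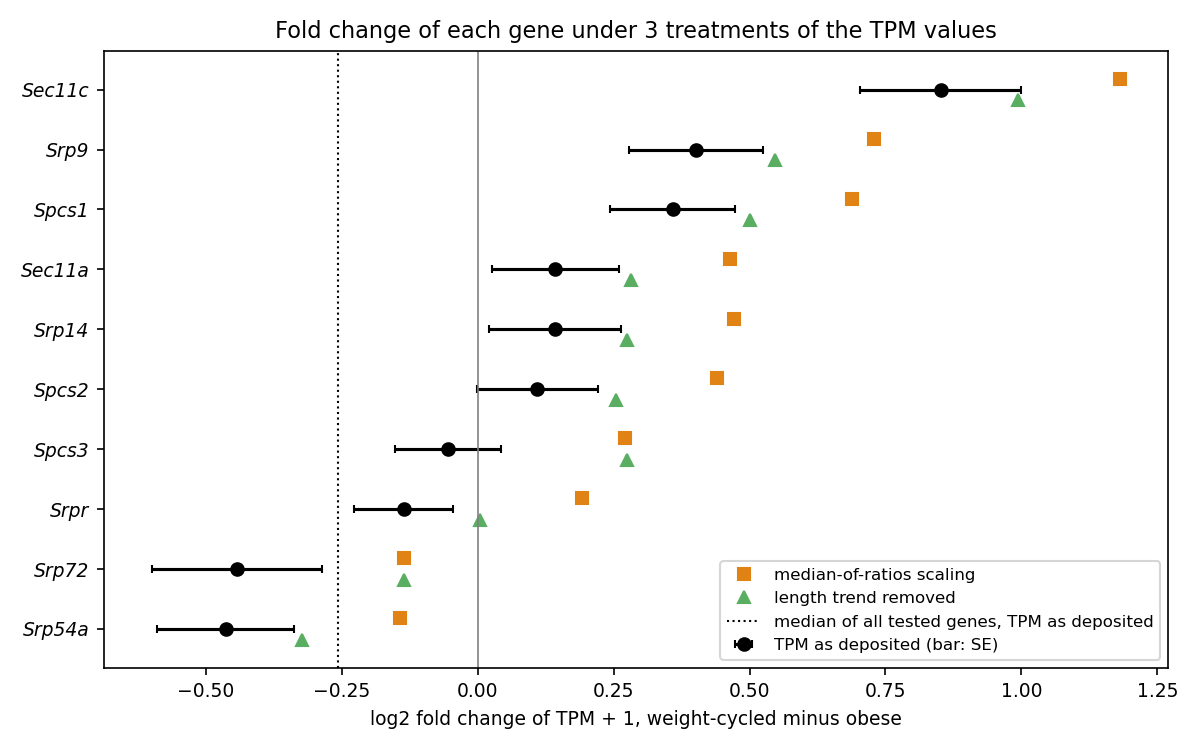
Log2 fold change of TPM + 1, weight-cycled minus obese (x axis), for the 10 genes from 3 treatments of the values: as deposited (black, bar: SE), after median-of-ratios scaling (orange squares) and after removal of the length trend (green triangles). The dotted line is the median of all tested genes, -0.26; Sec11c lay at 0.85, 1.18 and 0.99, and Srp54a at -0.46, -0.14 and -0.32.

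Among the transcripts of the signal recognition particle and its receptor, Srp9 rose, Srp54a fell and Srp14, Srp72 and Srpr did not pass on TPM as deposited, and none of the 5 passed after scaling or length removal. Srp9 (ENSMUSG00000026511.7, chromosome 1, 182124737 to 182132407, plus strand) encodes a protein that pairs with Srp14 on the Alu domain of the particle's RNA, the end that slows translation. The 250 bases upstream of its start are shown because Srp9 was a member past the threshold whose upstream window holds no annotated exon. They lie at chr1:182124487-182124736 on the plus strand of GRCm38.p6, from RefSeq, 5′ to 3′, and capitals mark GC boxes (GGGCGG on either strand).
Srp9 upstream: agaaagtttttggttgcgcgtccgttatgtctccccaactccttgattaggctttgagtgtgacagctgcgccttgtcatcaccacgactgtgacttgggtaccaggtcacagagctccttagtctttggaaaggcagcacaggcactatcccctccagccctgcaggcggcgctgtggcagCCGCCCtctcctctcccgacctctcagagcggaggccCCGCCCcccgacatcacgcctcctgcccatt
Of 8 members with a RefSeq window, 4 (Sec11a, Spcs1, Srp9 and Srpr) held a GC box in the 250 bases upstream, as did 32.7% of 32851 promoters. The ETS-type word CCGGAAG was in 3 (Sec11a, Srp54a and Srp72) and in 6.91% of promoters, and CCAAT was in 2 (Spcs2 and Srpr) and in 33.8%. The ER stress response element, TGACGTGG and TATAAA were in none of the 8, and in 0.113%, 0.563% and 12.4% of promoters. Sec11c and Spcs3 had no window among the sequences used here, so their upstream bases were not searched. Both strands were searched, the ER stress response element contains CCAAT, and windows of several members run into exons.

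Srp9 had 84.5, 110, 104 and 131 TPM in weight-cycled libraries, against 72.9, 85.0, 83.3 and 80.1 TPM in obese libraries. Weight-cycled replicate 1 lay just under the highest obese library and the other 3 above all of them. The means were 108 ± 19.3 TPM in weight-cycled and 80.3 ± 5.37 TPM in obese islets (SD, n = 4 each). The log2 difference was 0.40 (SE 0.123), with a limma adjusted p of 0.0419. The call was lost after scaling, with a log2 fold change of 0.73 and a limma adjusted p of 0.0686, and after length removal, with 0.55 and a limma adjusted p of 0.0591. A processed pseudogene, Gm13736, singled out after its values were seen, has all 223 of its 31-base words inside Srp9 transcripts. It was listed at 14.7, 25.0, 16.0 and 9.00 TPM in weight-cycled and at 0, 21.7, 5.01 and 10.1 TPM in obese libraries, so some Srp9 reads may be counted there. With both summed, Srp9 plus Gm13736 had a log2 fold change of 0.46 (limma adjusted p = 0.0383), a call lost after scaling (0.79, limma adjusted p = 0.0648) and after length removal (0.61, limma adjusted p = 0.0575). Exons of Gm17968 on the opposite strand cover 14.1% of the exon bases of Srp9.

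Srp14 (ENSMUSG00000009549.14, chromosome 2, 118475850 to 118479711, minus strand) had 91.7, 103, 102 and 140 TPM in weight-cycled libraries, against 95.8, 96.5, 106 and 92.2 TPM in obese libraries. Only weight-cycled replicate 4 lay above the obese range, and the log2 fold change of 0.14 (SE 0.122) did not pass (limma adjusted p = 0.347). The ratio of Srp9 to its partner Srp14 was 0.922, 1.07, 1.02 and 0.941 in weight-cycled libraries, against 0.761, 0.881, 0.787 and 0.869 in obese libraries. Every weight-cycled library had the higher ratio, with means of 0.988 ± 0.0692 in weight-cycled and 0.824 ± 0.0595 in obese islets (SD, n = 4 each). This ratio takes Srp9 without Gm13736 and was not tested. With Gm13736 added, weight-cycled replicate 4 had 140.44 TPM against 139.65 TPM of Srp14. Obese replicate 2 had 106.7 TPM against 96.5 TPM, a higher ratio, so the groups then overlapped.

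**Figure D3:**
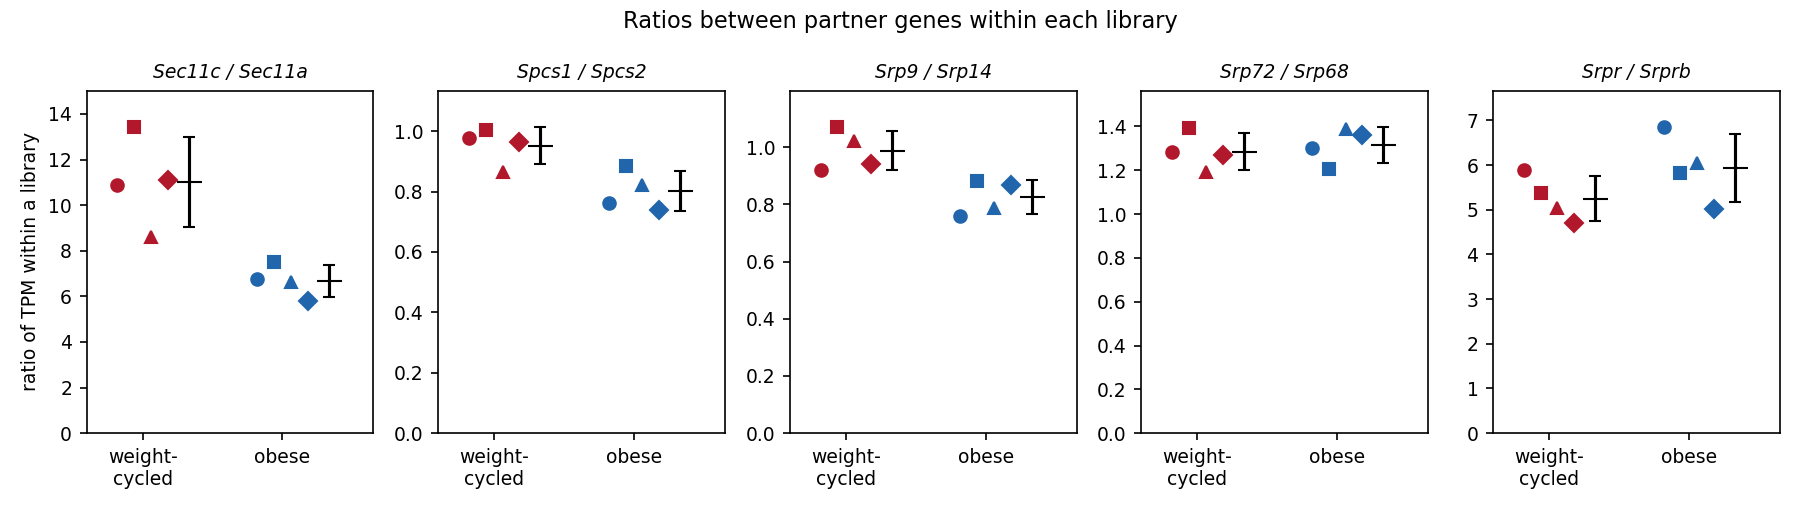
Ratio of TPM between partner genes within each library (y axis, from 0), weight-cycled in red and obese in blue, with mean ± SD in black, n = 4 each, and point shapes for replicates 1 to 4 (circle, square, triangle, diamond). Sec11c over Sec11a and Srp9 (without Gm13736) over Srp14 did not overlap between groups. Spcs1 over Spcs2, Srp72 over Srp68 and Srpr over Srprb did.

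Srp54 is the GTPase of the particle that binds the signal peptide. The mouse genome carries 3 near-identical copies on chromosome 12, of which Srp54a (ENSMUSG00000073079.6, chromosome 12, 55080262 to 55115367, plus strand) is the member studied. The coding sequences, each 1512 bases long, differ at 0 bases between Srp54a and Srp54b and at 6 bases between either and Srp54c. Coding bases 876 to 965 of transcripts Srp54a-202, Srp54b-201 and Srp54c-202 (GENCODE M21, GRCm38) are shown, 5′ to 3′, because they hold 3 of those 6 bases and show how little separates reads of the copies; capitals mark the differing bases.
Srp54a: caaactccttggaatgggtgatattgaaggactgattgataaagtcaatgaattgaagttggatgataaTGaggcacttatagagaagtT
Srp54b: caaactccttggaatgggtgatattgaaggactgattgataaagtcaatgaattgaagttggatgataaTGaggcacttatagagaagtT
Srp54c: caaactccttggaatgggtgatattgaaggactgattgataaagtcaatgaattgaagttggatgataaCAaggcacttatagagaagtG
Of the 31-base words in Srp54a transcripts, 72.5% also occur in another gene's, as do 89.9% of those of Srp54b and 96% of those of Srp54c. The split of reads between copies is thus an estimate, and the copies are also given as a sum.

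Srp54a had 36.0, 23.1, 31.9 and 26.0 TPM in weight-cycled libraries, against 42.4, 39.8, 37.6 and 40.8 TPM in obese libraries. All 4 weight-cycled libraries lay below all 4 obese ones, as for 21.1% of all tested genes, with replicate 1 nearest to them. The means were 29.3 ± 5.81 TPM in weight-cycled and 40.2 ± 2.04 TPM in obese islets (SD, n = 4 each). The log2 difference was -0.46 (SE 0.127), with a limma adjusted p of 0.0357. That is -0.21 relative to the median of all tested genes, and the call was lost after scaling (-0.14, limma adjusted p = 0.313) and after length removal (-0.32, limma adjusted p = 0.102). Srp54b had 15.3, 11.5, 12.6 and 9.91 TPM in weight-cycled and 18.6, 17.1, 16.9 and 15.6 TPM in obese libraries, and Srp54c had 12.5, 7.20, 10.8 and 8.51 TPM in weight-cycled and 15.0, 13.1, 11.7 and 12.1 TPM in obese libraries. Srp54b did not overlap between groups and Srp54c did. The 3 copies summed to 51.3 ± 10.2 TPM in weight-cycled and 70.2 ± 4.25 TPM in obese islets, without overlap, and fitted as 1 gene they fell by 0.46 on the log2 scale (SE 0.127, limma adjusted p = 0.0358), a call also lost after scaling (-0.14, limma adjusted p = 0.325) and after length removal (-0.10, limma adjusted p = 0.443). For length removal the sum was given the longest transcript length of the copies, whereas Srp54a alone had its median length. The 2 values after length removal are thus not alike. With longest transcripts for all genes, Srp54a alone stood at -0.13 (limma adjusted p = 0.343). The share of Srp54a in the sum was 57.0% ± 1.38 in weight-cycled and 57.3% ± 1.67 in obese islets. The copies thus kept about the same proportions.

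**Figure D4:**
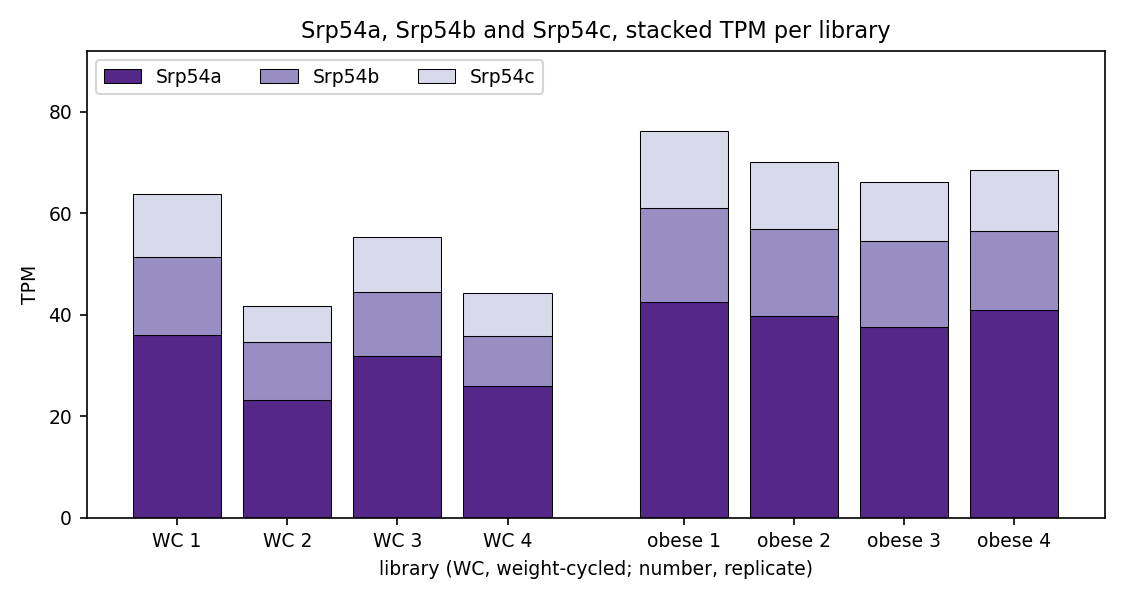
Stacked TPM of Srp54a (dark), Srp54b (medium) and Srp54c (light) in each weight-cycled (WC) and obese library (x axis: library, with its replicate number). The stacks reached 41.8 to 63.8 TPM in weight-cycled and 66.2 to 76.1 TPM in obese libraries.

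Srp72 (ENSMUSG00000036323.14, chromosome 5, 76974683 to 76999937, plus strand), which with Srp68 forms the scaffold of the particle's other end, was the least abundant of the 10 genes. It had 16.5, 8.83, 11.4 and 10.7 TPM in weight-cycled libraries, against 17.4, 17.3, 16.0 and 13.9 TPM in obese libraries. Weight-cycled replicate 1 lay among the obese libraries and the other 3 below them. The log2 fold change of -0.44 (SE 0.156) just missed the threshold (limma adjusted p = 0.0538) and was -0.13 after scaling (limma adjusted p = 0.358). Its ratio to Srp68 was 1.28 ± 0.0838 in weight-cycled and 1.31 ± 0.0818 in obese islets (SD, n = 4 each), which differed by less than the spread between libraries.

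Srpr (ENSMUSG00000032042.11, chromosome 9, 35200175 to 35247973, plus strand) encodes the GTPase subunit of the receptor, which meets Srp54 at the membrane. It had 98.0, 78.9, 88.1 and 87.8 TPM in weight-cycled libraries, against 101, 101, 94.8 and 90.6 TPM in obese libraries. Weight-cycled replicate 1 lay inside the obese range and the other 3 just below it, and the log2 fold change of -0.14 (SE 0.0903) did not pass (limma adjusted p = 0.232). Relative to Srprb, the subunit that anchors the receptor in the membrane, Srpr stood at 5.25 ± 0.504 in weight-cycled and 5.94 ± 0.751 in obese islets (SD, n = 4 each), an overlap. Of the 31-base words of Srpr, 26.9% occur in other genes' transcripts, chiefly the pseudogene Gm6733.

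Calls among the members, like those over all tested genes, depended on single libraries. Without weight-cycled replicate 1, 4 of the 9 passed on TPM as deposited, Spcs1 and Srp9 higher and Srp54a and Srp72 lower, but 3.32% of all tested genes were then higher and 54.6% lower. Scaled and without that library, 7 of the 9 were higher and 1 was lower, with 19.9% of all tested genes higher and 17.9% lower. Leaving out any one of weight-cycled replicates 2, 3 and 4 or obese replicates 1, 2 and 3 left none of the 9 past the threshold by limma, with 4 at an unadjusted p under 0.05 each time, and leaving out obese replicate 4 left 1. Weight-cycled replicate 4 was the highest of all 8 libraries for 6 members (Sec11a, Sec11c, Spcs1, Spcs2, Srp9 and Srp14), and weight-cycled replicate 1 lay within the obese range for 6 (Sec11a, Spcs1, Spcs3, Srp9, Srp72 and Srpr).

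Summed levels of marker genes of other cell types were set beside the members. The 4 duct markers summed to 14.2 to 18.8 TPM in weight-cycled and 19.0 to 25.9 TPM in obese libraries, without overlap. Only 1 of the 4 averaged at least 1 TPM, and 2 of the 4, Sox9 and Cftr, were below 0.1 TPM on average. The sum is thus nearly that of a single gene. The 4 plasma and B cell markers used summed to 0.796 to 1.04 TPM in weight-cycled and 1.27 to 2.19 TPM in obese libraries, also without overlap, with Mzb1 and Ms4a1 below 0.1 TPM on average. Of single tested genes, 21.1% were lower in weight-cycled islets with no overlap. The other sums overlapped between groups. The 5 endothelial markers summed to 19.7 to 42.7 TPM in weight-cycled and 33.4 to 58.6 TPM in obese libraries, and the 6 macrophage markers to 34.0 to 43.8 TPM in weight-cycled and 42.0 to 49.9 TPM in obese libraries. The 14 acinar markers summed to 3573 to 8272 TPM in weight-cycled and 2789 to 5218 TPM in obese libraries, with Ptf1a, an acinar regulator, below 0.1 TPM on average. Among the islet hormone cells, the 5 alpha-cell markers summed to 3015 to 8467 TPM in weight-cycled and 4527 to 12271 TPM in obese libraries, the 3 delta-cell markers to 2362 to 3860 TPM in weight-cycled and 2876 to 4581 TPM in obese libraries, and the 2 pancreatic polypeptide cell markers to 5601 to 11104 TPM in weight-cycled and 5008 to 12523 TPM in obese libraries. The 4 stromal markers summed to 0.905 to 1.90 TPM in weight-cycled and 1.35 to 2.03 TPM in obese libraries. Lower at the limma threshold were 1 of 5 endothelial, 1 of 3 macrophage, 1 of 1 duct and 1 of 1 plasma and B cell markers tested, and higher was 1 of 5 alpha-cell markers, Ttr. None of 12 acinar, 3 delta and 2 pancreatic polypeptide cell markers passed, and no stromal marker was tested. These counts stand beside 23.9% of all tested genes lower and 1.21% higher, and after scaling none of the markers in these lists passed. Without weight-cycled replicate 1, on TPM as deposited, 5 of 5 endothelial markers were lower. Of the 5 alpha-cell markers, 1 was then higher and 1 lower, and the other counts were unchanged. Of all tested genes, 54.6% were then lower and 3.32% higher. No marker was at 0 in all libraries, and the part of these cell types in the members' levels was not tested.

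The genes whose pattern over the 8 libraries was nearest to that of Sec11c were led by Ssr4, a subunit of the translocon-associated protein complex. Likeness was measured as the root mean square difference between deviations of log2(TPM + 1) from each gene's own mean, and both groups and all libraries are shared by every gene, so these values are a description. Ssr4 lay at 0.0611, followed by Cthrc1 at 0.119, Sdf2l1, a chaperone partner of the endoplasmic reticulum, at 0.134, Creld2 at 0.142 and Cd200 at 0.153. The median over all tested genes was 0.636. Of the other members, Srp9 was nearest at 0.260 and Spcs1 next at 0.281, while Srp54a was farthest at 0.757. With deviations taken from each gene's group mean, which leaves out the difference between groups, Ssr4 again came first at 0.0448, followed by Tuba1c at 0.0658, Lage3 at 0.0673, Tmem160 at 0.0718 and Alg5 at 0.0722, against a median of 0.303. Ssr4 had 659, 980, 704 and 1015 TPM in weight-cycled libraries, against 389, 498, 439 and 404 TPM in obese libraries. Its ratio to Sec11c stayed within 2.15 to 2.38 in weight-cycled and 2.08 to 2.20 in obese libraries.

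**Figure D5:**
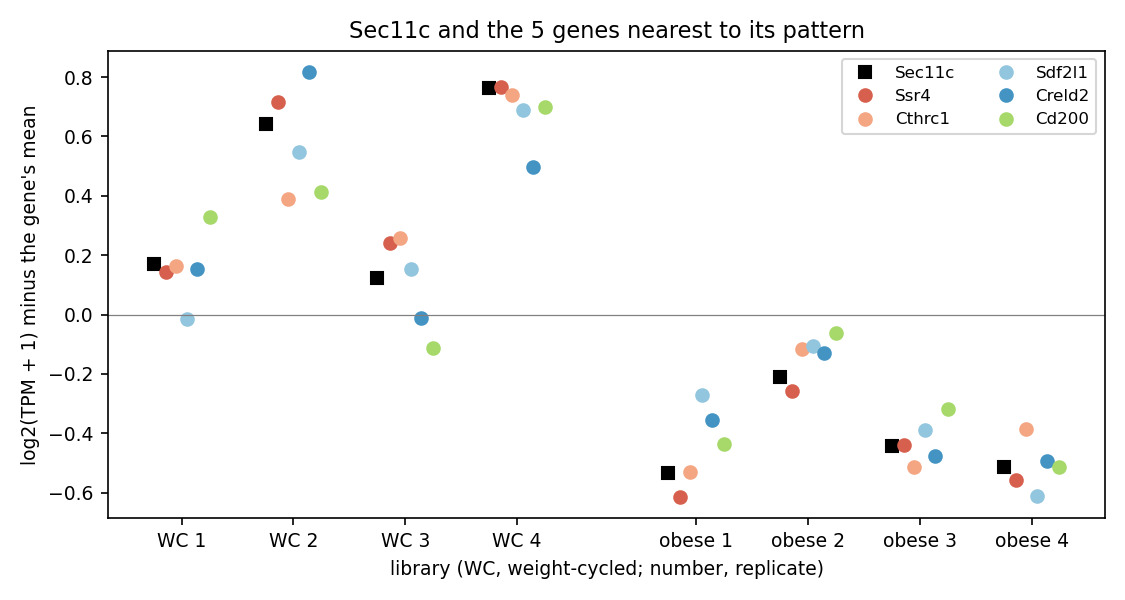
Deviation of log2(TPM + 1) from each gene's mean over 8 libraries (y axis) by library (x axis; WC, weight-cycled), for Sec11c (black squares) and the 5 genes nearest to it (coloured circles). Ssr4 tracked Sec11c most closely, with a root mean square difference of 0.0611.

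The neighbouring steps of targeting and cleavage showed few calls. Of 45 genes in 6 further lists, 41 were tested, of which 1 rose, 6 fell and 34 did not pass, shares to be set beside the 1.21% and 23.9% of all tested genes. The translocon list had 1 of 10 tested genes higher, Ssr4, at 839 ± 184 TPM in weight-cycled and 433 ± 48.3 TPM in obese islets (SD, n = 4 each), or 0.93 higher on the log2 scale (SE 0.1504) with a limma adjusted p of 0.0165. Since Ssr4 and Sec11c vary together, this is no separate support for the level of Sec11c. Of the 5 remaining genes of the particle and its receptor, 1 fell, Srp54b, at -0.45 (limma adjusted p = 0.0354). In the list for tail-anchored proteins, whose membrane segment sits at the end of the chain and which bypass the signal recognition particle, 3 of 7 fell: Bag6 at -0.52 (limma adjusted p = 0.0345) and Sgta at -0.44 (limma adjusted p = 0.0337), which hold such proteins in the cytosol, and Wrb at -0.40 (limma adjusted p = 0.0359), part of their receptor. In the ER membrane protein complex, an insertase for membrane segments, 2 of 10 fell, Mmgt1 at -0.31 (limma adjusted p = 0.0454) and Emc10 at -0.27 (limma adjusted p = 0.0487). Signal peptide peptidase clears signal peptides from the membrane after the cut. None of 3 tested genes of its family and none of 6 mitochondrial leader peptidases passed on TPM as deposited. The smallest p in these lists belonged to Sppl3 at -0.33 (limma adjusted p = 0.068) and Pmpca at -0.29 (limma adjusted p = 0.0559). After scaling, 2 of the 41 were higher and 0 lower. These were Ssr4 (limma adjusted p = 0.0385) and the signal peptide peptidase gene H13, at 0.44 (limma adjusted p = 0.0470). After length removal 3 were higher and 0 lower, which were Ssr4 (limma adjusted p = 0.0222), Ssr3 at 0.49 (limma adjusted p = 0.0397) and H13 at 0.31 (limma adjusted p = 0.0479). H13 and Ssr3 were singled out after their values were seen, and none of the 6 lower calls held on either scale. Without weight-cycled replicate 1, on TPM as deposited, 4 of the 41 were higher and 15 lower, beside 3.32% and 54.6% of all tested genes. Sppl3 (-0.44, limma adjusted p = 0.00401) and Pmpca (-0.34, limma adjusted p = 0.0164) then passed as well.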

How the data were processed

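Polyadenylated RNA of islets was sequenced in 8 libraries, 4 weight-cycled and 4 obese. The authors deposited TPM per gene. Per the submitters' processing notes they used Salmon 1.5.2 and mm10. Not given in the sources used here are the annotation, the summing of transcripts to genes, strandedness and depth. Columns summed to 999930 to 999949 over 35596 genes, so a gene's TPM depends on the others. Salmon shares reads of near-identical copies by estimate.

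The 8127 genes that averaged 1 TPM or more were fitted on log2(TPM + 1) in R 4.3.3 with limma 3.58.1, using lmFit and a trended eBayes, without covariates, two-sided, with Benjamini-Hochberg adjustment over all of them and a threshold of 0.05. Fold changes are weight-cycled minus obese on that scale and understate changes of low genes. The chief alternatives were median-of-ratios scaling and a per-library loess (span 0.5). The loess fitted deviations from each gene's mean over libraries against median transcript length, and subtracting its trend also recentred each library. Only the sum of the Srp54 copies was given their longest transcript length instead. Lengths, coordinates and shared 31-base words were read from GENCODE M21 (GRCm38, which is the assembly behind mm10), and upstream sequences from RefSeq. The fit was tested on simulated data, where it recovered 40.3% of log2 changes of 0.5, 94.0% of 1.0 and 100% of 2.0. Changes of 0.5, larger than those of the members other than Sec11c on TPM as deposited, were thus often missed there. The simulation changed 67, 67 and 66 of 8127 genes, with noise independent between genes, and 9 unchanged genes passed. In the real data 98 genes were higher and 1946 lower, so these rates may not hold for them. The members and lists were chosen with earlier results of these data known. Named were all members, the genes past the threshold in each further list (at most 4, or the 1 with the smallest p where none passed) and the 5 genes nearest to Sec11c by either measure, leaving out predicted gene models. Repeats without weight-cycled replicate 1 after scaling or length removal, lengths of longest transcripts and sums of copies were chosen after seeing the data. A marker of the plasma and B cell list is not reported here.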

Additional observations from a re-analysis of the deposited data

Results flagged for a closer look

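In 90 groups of 4 libraries examined, 3 held a library far from the other 3 by Dixon's criterion, which chance meets in about 1 of 20 groups, or 4.5 of 90. Sppl3, a signal peptide peptidase homologue, had 1.599 TPM in obese replicate 2, against 1.29 to 1.31 TPM in the other obese libraries. The acinar markers summed to 8272 TPM in weight-cycled replicate 1, and the other weight-cycled libraries held 3573 to 4086 TPM. For the plasma and B cell markers the sum was 0.796 TPM in weight-cycled replicate 4, while the other weight-cycled libraries had 1.02 to 1.04 TPM. No member's TPM met the criterion in either group.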

How the results depend on the processing

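The log2 fold change of Sec11c (0.85) stayed above 0 in every alternative run. Sec11c was chosen for its rise in this contrast, so this is a description and no support. Its groups did not overlap, so leaving out single libraries could not have reversed it. It was 0.62 with array weights, 1.18 with median-of-ratios scaling, 1.35 scaled and without weight-cycled replicate 1, 1.11 with length removal without that library, and 0.74 to 0.95 when single libraries were left out. Of the 9 other members, 2 were higher and 1 lower on TPM as deposited. The higher count was 0 with no filter and with scaling, 1 with quantile scaling and with length removal by median or longest transcripts, 4 with array weights, 7 scaled without weight-cycled replicate 1 and 6 with length removal without it. The lower count was 0 with no filter, scaling, quantile scaling and both length removals, 2 with array weights and with length removal without weight-cycled replicate 1, and 2 with the replicate block. Single libraries left out gave 0 to 2 higher and 0 to 2 lower.

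Over all tested genes, 98 were higher and 1946 lower. With no filter 0 of 19482 passed by limma (5686 at an unadjusted p under 0.05), and without obese replicate 1, 0 of 8127 passed (2714 unadjusted). Higher counts were 173 with quantile scaling, 296 with array weights, 149 with the replicate block, 180 with longest transcripts, and without weight-cycled replicate 1 they were 1618 scaled and 1033 with length removal. Lower counts were 1001 at a mean TPM of at least 5, 46 scaled, 124 with quantile scaling, 124 with length removal, 4499 with array weights, 162 with longest transcripts and 1084 with length removal without weight-cycled replicate 1. Single libraries left out gave 0 to 270 higher and 0 to 4441 lower. For the 41 further genes, 1 higher and 6 lower, the higher count was 0 with no filter, 2 scaled, 3 with length removal, 6 with array weights and 2 with the replicate block, and the lower count was 0 with no filter, scaling, quantile scaling and length removal and 18 with array weights. Single libraries left out gave 0 to 4 higher and 0 to 15 lower, with 4 and 15 without weight-cycled replicate 1. The no-filter fit tested more low genes; the cause of the other changes was not tested.

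Of the single genes, Spcs3 turned to 0.33 scaled and 0.35 with length removal, both without weight-cycled replicate 1. Srpr turned to 0.22 scaled without it. With all 8 libraries, Spcs3 also stood at 0.27 scaled, 0.28 with length removal, 0.24 with longest transcripts and 0.0384 with quantile scaling. Srpr then stood at 0.19 scaled, 0.00407 with length removal and 0.13 with longest transcripts. Mmgt1 turned to 0.0454 with length removal, 0.0194 with longest transcripts and 0.10 with length removal without weight-cycled replicate 1. Emc10 turned to 0.0548 scaled and 0.10 scaled without it. Spcs3 without weight-cycled replicate 2 (0.000445) and Pmpca with length removal without weight-cycled replicate 1 (0.0152) turned as well. Over 18 genes and their alternatives, 362 values were compared, of which 211 kept direction and side of the threshold, 116 lost the call and 18 gained one. A further 9 changed sign with no call before or after, and 8 changed sign with a call before or after. The deviations of same-numbered libraries correlated at 0.21, -0.28, -0.05 and 0.23. Without differently numbered libraries beside them, these values cannot show whether replicate numbers pair the libraries. Depth is unknown and limits every low value.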
